A study of Mus musculus with 6 samples.

Results

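De novo lipogenesis is the making of fatty acids from carbohydrate carbon in the cytosol of the hepatocyte. It is described here through 10 genes, all found on the arrays among 20416 genes: the enzyme genes Acly, Me1, Acaca, Acacb, Fasn, Elovl6 and Scd1, the lipogenic regulator gene Thrsp, and Srebf1 and Mlxipl, which encode the transcription factors SREBP1 and ChREBP. The genes were taken from a list of pathway members, and a gene's level was the mean log2 intensity of the probe sets that the platform annotation assigns to that gene alone. The 10 genes were read by 226 of the table's 234873 probe sets.

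The animals were adult C57BL/6 mice. In the miR-143DOX group (n = 3) they carried a doxycycline-inducible allele of the microRNA miR-143, and in the control group (n = 3) they were wildtype littermates. Both groups drank 4 mg/ml doxycycline with 10% sucrose for 8 days, so the controls received the drug and the sugar without the transgene, and hepatocytes were then isolated by collagenase perfusion of the liver and read on 1 Affymetrix array per mouse. The labels name neither the element that drives the inducible allele nor the time of day or feeding state at collection, and the level of miR-143 was not analysed here.

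Carbohydrate supplies the pathway with citrate, which ATP citrate lyase splits into acetyl-CoA; acetyl-CoA carboxylase turns this into malonyl-CoA, and fatty acid synthase condenses these units into palmitate with NADPH as the reductant. In liver, insulin raises the pathway through SREBP1 and sugar metabolites raise it through ChREBP, the nuclear receptor LXR switches on transcription of Srebf1, and transcripts of several of the enzymes follow feeding and the time of day. Sucrose in the diet is a known inducer of these genes in rodents.

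All 10 genes lay above the level under which a gene was left out (log2 5.06), and 0 of the 10 passed a 5% false discovery rate (FDR) in limma's moderated test adjusted over all 15312 genes tested. The background was the same, 0% of all genes called. The values below are therefore differences between group means that the test did not call. Of the 10, 8 lay above 0 and 2 below 0 (miR-143DOX minus control), with a median difference of 0.29 (log2), against 52.4% above 0 and a median of 0.0083 over all genes tested. Before adjustment, 2 of the 10 had p below 0.05 and lay higher, Fasn and Me1, and 0 lay lower, where 1.38% of all genes lay higher and 1.68% lower by that measure. In 1 gene, Fasn, every miR-143DOX mouse was above every control mouse, as in 3.4% of all genes tested, and in 0 was every miR-143DOX mouse below every control mouse (3.73% of all genes). The labelled cell type was checked against 10 hepatocyte markers such as Alb and Ttr, the genes of albumin and transthyretin, whose mean level was 12.51 to 12.68 (log2) in miR-143DOX arrays and 12.55 to 12.84 in control arrays.

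**Figure D1:**
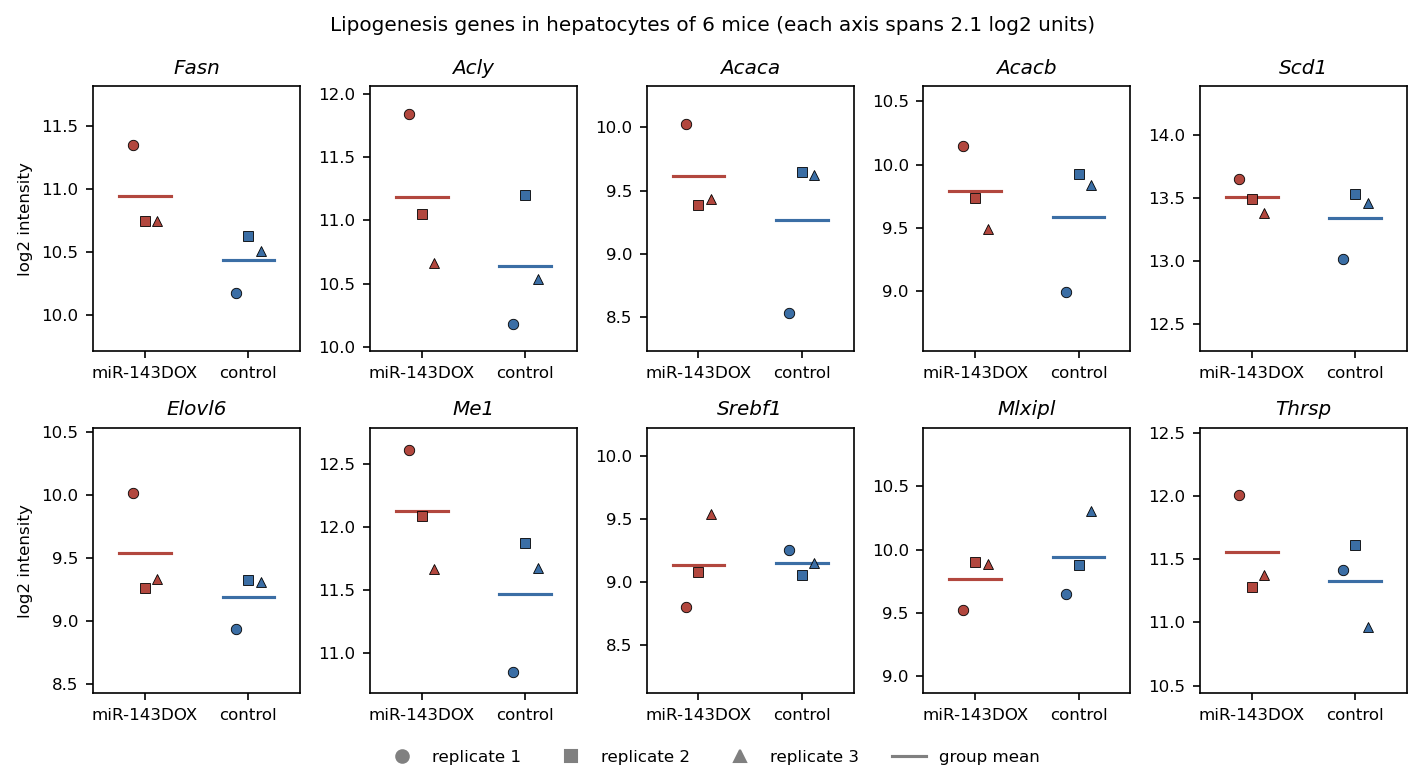
Log2 intensity of each lipogenesis gene in the 6 arrays, miR-143DOX left and control right, with a point per mouse and a line at the group mean; every axis spans the same number of log2 units. The circle, replicate 1, is the highest point of the miR-143DOX group and the lowest of the control group in each of Fasn, Acly, Acaca, Acacb, Scd1, Elovl6 and Me1.

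Promoter windows are shown for 5 genes: Fasn and Srebf1, which share a sequence bound by LXR, Mlxipl, which holds an E-box, and Acly and Me1, which had the widest spread over the arrays. The motifs were chosen from what is known of these genes' control. RefSeq windows (GRCm38.p6), from 250 bases before to 50 bases after an annotated start, were found for 9 of the 10 genes, 13 windows in all, and are given 5′ to 3′ on the gene's strand, with the motifs below in capitals.
Fasn, chr11:120824498-120824797, minus strand: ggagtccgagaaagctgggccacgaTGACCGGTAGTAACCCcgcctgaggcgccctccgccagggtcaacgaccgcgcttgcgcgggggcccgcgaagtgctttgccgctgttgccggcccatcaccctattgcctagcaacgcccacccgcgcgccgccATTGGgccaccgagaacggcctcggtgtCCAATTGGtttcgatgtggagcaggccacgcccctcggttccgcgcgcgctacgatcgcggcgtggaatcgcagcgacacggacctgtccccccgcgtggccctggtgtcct
Srebf1, chr11:60210422-60210721, minus strand: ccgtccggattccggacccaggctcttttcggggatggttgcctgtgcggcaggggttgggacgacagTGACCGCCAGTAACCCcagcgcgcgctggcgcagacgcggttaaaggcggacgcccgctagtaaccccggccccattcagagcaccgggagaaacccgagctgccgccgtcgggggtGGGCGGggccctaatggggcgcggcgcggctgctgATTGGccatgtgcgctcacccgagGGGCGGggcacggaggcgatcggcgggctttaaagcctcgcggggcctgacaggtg
Mlxipl, chr5:135089640-135089939, plus strand: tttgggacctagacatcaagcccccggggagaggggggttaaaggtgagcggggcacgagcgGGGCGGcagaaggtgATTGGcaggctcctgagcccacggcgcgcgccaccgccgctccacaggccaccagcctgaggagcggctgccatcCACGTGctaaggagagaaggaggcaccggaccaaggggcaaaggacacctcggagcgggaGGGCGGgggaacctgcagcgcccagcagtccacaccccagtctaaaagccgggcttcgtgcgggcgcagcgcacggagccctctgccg
Acly, chr11:100527951-100528250, minus strand: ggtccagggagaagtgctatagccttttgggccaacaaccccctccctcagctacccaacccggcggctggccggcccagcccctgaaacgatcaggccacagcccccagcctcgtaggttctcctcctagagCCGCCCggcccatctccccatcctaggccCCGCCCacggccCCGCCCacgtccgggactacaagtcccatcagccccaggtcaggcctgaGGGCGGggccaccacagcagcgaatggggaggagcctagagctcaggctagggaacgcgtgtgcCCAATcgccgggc
Me1, chr9:86695865-86696164, minus strand: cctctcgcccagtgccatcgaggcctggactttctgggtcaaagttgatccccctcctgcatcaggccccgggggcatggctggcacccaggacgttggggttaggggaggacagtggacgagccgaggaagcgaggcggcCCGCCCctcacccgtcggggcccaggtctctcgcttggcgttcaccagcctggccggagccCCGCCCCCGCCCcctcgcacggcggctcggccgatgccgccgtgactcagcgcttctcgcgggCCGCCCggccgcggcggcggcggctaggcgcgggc
Motifs were searched on both strands. The paired LXR sites searched for were those of Srebf1 and Fasn themselves, and not a general LXR sequence. They occurred in 3 of 32851 windows (0.00913%), with those of Fasn and of this Srebf1 window among them. Both were the reverse complement, starting 225 and 182 bases before the annotated start. Because the letters come from these genes, finding them here tests nothing, and the share does not measure how rare LXR sites are. The E-box CACGTG, the core of sites bound by ChREBP with its partner MLX and by the clock factors CLOCK and BMAL1, occurred in 7.15% of windows and in 1 of the 13, that of Mlxipl, 98 bases before the start. CCAAT, the site of NF-Y, occurred in 37.4% of windows and in 8 of the 13; Fasn held 3 copies, of which a pair overlap. The GC box GGGCGG, a site of SP1, occurred in 35.7% of windows and in 5 of the 13, with 4 copies in the Acly window and 4 in the Me1 window. The consensus sterol response element (0.234% of windows) and the D-box TTANGTAA (2.32%), the site of the clock output factor DBP, were found in 0 of the 13, which says only that these letters are not in these windows. A match is a description of sequence and not a measurement of binding.

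Acly and Me1 supply the pathway with acetyl-CoA and NADPH. Acly, the gene of ATP citrate lyase, had 11.84, 11.05 and 10.67 (log2 intensity) in miR-143DOX mice, against 10.18, 11.20 and 10.53 in control mice. The groups overlapped, and miR-143DOX replicate 1 was the highest of the 6 arrays and control replicate 1 the lowest. The mean was 11.19 ± 0.60 in miR-143DOX and 10.64 ± 0.52 in control (SD, n = 3 each), a 1.46-fold difference with a 95% interval of 0.934 to 2.28 (limma adjusted p = 0.9997 over all genes, unadjusted p = 0.0893). The log2 difference of 0.55 was 0.22 without miR-143DOX replicate 1, and 0.32 once control replicate 1 was left out. Me1, the gene of cytosolic malic enzyme, which yields NADPH, had 12.61, 12.09 and 11.67 in miR-143DOX mice, against 10.86, 11.87 and 11.68 in control mice. Here too the groups overlapped, and the arrays numbered 1 were the ends of the range, 1.75 log2 units apart. With all 6 arrays Me1 had the largest difference of the 10 genes, 0.65 with a standard error of 0.27, which is 1.57-fold (95% interval 1.04 to 2.37, limma adjusted p = 0.9997, unadjusted p = 0.0335). Without control replicate 1 it was 0.35, below the 0.38 of Fasn. For both genes the SD within a group was close in size to the difference between the groups.

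Acaca and Acacb encode the acetyl-CoA carboxylases: the cytosolic enzyme ACC1, whose malonyl-CoA feeds synthesis, and ACC2 at the mitochondrial surface, whose malonyl-CoA restrains fatty acid entry into mitochondria. Acaca had 10.03, 9.39 and 9.43 in miR-143DOX mice, against 8.53, 9.65 and 9.62 in control mice. Control replicate 1 lay far below every other array, while the other controls lay above miR-143DOX replicates 2 and 3. The difference of the means was 0.35 with a standard error of 0.28 (limma adjusted p = 0.9997). Acacb had 10.15, 9.74 and 9.49 in miR-143DOX mice, against 8.99, 9.92 and 9.84 in control mice, with a difference of 0.21 and a standard error of 0.24 (limma adjusted p = 0.9997). Both genes had the same order of arrays at the ends, and without control replicate 1 both turned below 0, to -0.018 for Acaca and -0.089 for Acacb.

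Fasn encodes fatty acid synthase, the enzyme that builds palmitate. It had 11.35, 10.74 and 10.75 in miR-143DOX mice, against 10.18, 10.63 and 10.51 in control mice. The groups were apart, but miR-143DOX replicates 2 and 3 lay close above the highest control, and replicate 1 lay far above both. The mean was 10.95 ± 0.35 in miR-143DOX and 10.44 ± 0.23 in control (SD, n = 3 each), which is 1.42-fold (95% interval 1.07 to 1.89), and Fasn stood at rank 151 by p among the genes tested (limma adjusted p = 0.9997, unadjusted p = 0.0193). The difference was 0.51 with all arrays and 0.31 without miR-143DOX replicate 1.

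Elovl6 and Scd1 act on the product of Fasn, by elongating palmitate to stearate and by placing a double bond in stearate and palmitate. Elovl6 had 10.02, 9.26 and 9.33 in miR-143DOX mice, against 8.94, 9.32 and 9.31 in control mice. Apart from the arrays numbered 1, the 4 others lay close together. Its difference was 0.35 with a standard error of 0.20 (limma adjusted p = 0.9997), 0.11 without miR-143DOX replicate 1, and 0.22 once control replicate 1 was left out. Scd1 had 13.65, 13.49 and 13.38 in miR-143DOX mice, against 13.02, 13.53 and 13.46 in control mice, and differed by 0.17 with a standard error of 0.16 (limma adjusted p = 0.9997). It had the smallest range over the 6 arrays of the 10 genes, 0.63, again with replicate 1 at both ends, and its difference was 0.098 without miR-143DOX replicate 1, and 0.010 once control replicate 1 was left out.

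Thrsp encodes Spot 14, a nuclear and cytosolic protein that responds to thyroid hormone and carbohydrate and is associated with active lipogenesis. It had 12.01, 11.28 and 11.38 in miR-143DOX mice, against 11.41, 11.61 and 10.97 in control mice. The groups overlapped, and here control replicate 3 and not replicate 1 was the lowest array. The difference was 0.23 with a standard error of 0.21 (limma adjusted p = 0.9997) and turned to -0.0017 without miR-143DOX replicate 1. Thrsp was read by only 2 probe sets.

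The transcription factor genes did not share the arrangement of the enzymes. Srebf1 had 8.80, 9.08 and 9.54 in miR-143DOX mice, against 9.25, 9.05 and 9.15 in control mice, with miR-143DOX replicate 1 the lowest of the 6 arrays and replicate 3 the highest. Its difference was -0.01 (95% interval -0.40 to 0.38, limma adjusted p = 0.9997), so that a fold between 0.757 and 1.30 lay within the interval, and its SD was 0.37 in miR-143DOX against 0.10 in control. The sign of so small a difference changed under 6 of 18 alternatives. Mlxipl had 9.52, 9.90 and 9.88 in miR-143DOX mice, against 9.65, 9.88 and 10.30 in control mice, with a difference of -0.17 (95% interval -0.57 to 0.22, limma adjusted p = 0.9997). Again miR-143DOX replicate 1 was the lowest array, and without control replicate 3, the highest, the difference was 0.0063.

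**Figure D2:**
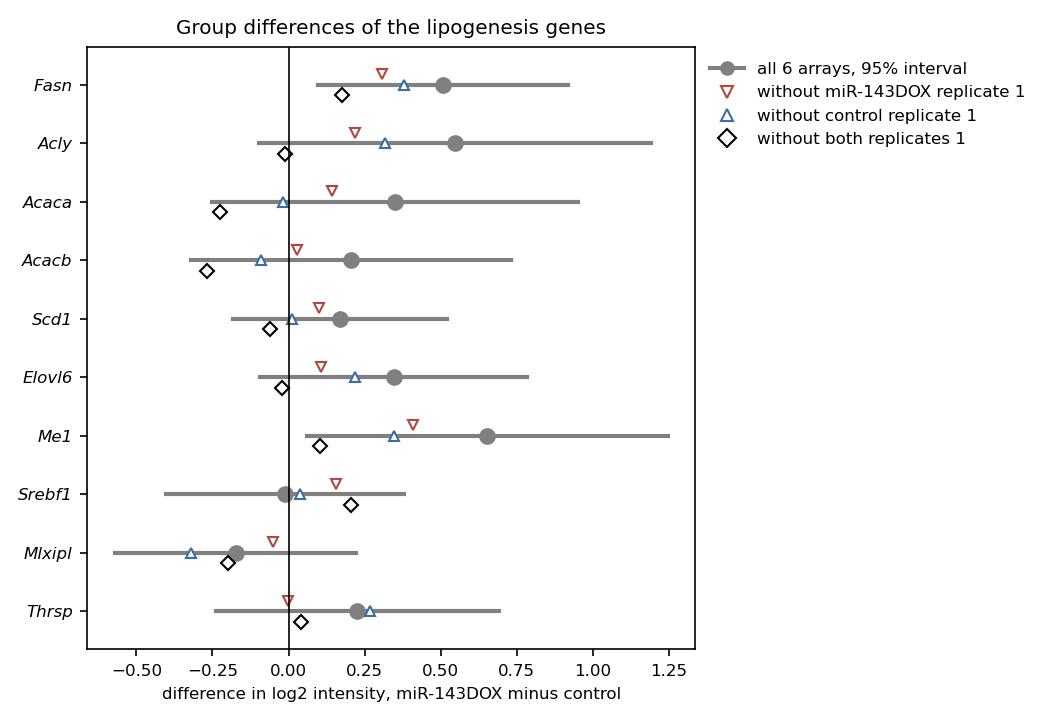
Difference in log2 intensity, miR-143DOX minus control, for each gene: the filled circle and bar give the estimate and 95% interval from all 6 arrays, and the open symbols give the estimate after leaving out miR-143DOX replicate 1, control replicate 1 or the pair of them. Only the intervals of Fasn and Me1 lie wholly above 0, and the estimates without both arrays lie between -0.27 and 0.21.

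The enzyme genes had the same arrays at the ends, 1 mouse of each group, and differed in the order of the other 4. In Fasn miR-143DOX replicates 2 and 3 lay above both remaining controls, and in Acaca and Acacb they lay below both. In all 8 of the 7 enzymes and Thrsp miR-143DOX replicate 1 was the highest array, and in 7 of these 8 control replicate 1 was the lowest. That arrangement was found in 3.12% of all genes tested; it was singled out after the values were seen. The mean deviation of the 8 genes from their own averages was 0.61, 0.035 and -0.084 in miR-143DOX arrays, against -0.58, 0.12 and -0.11 in control arrays (log2). For Srebf1 and Mlxipl it was -0.34, -0.010 and 0.21 in miR-143DOX arrays, against -0.051, -0.035 and 0.23 in control arrays. Without both arrays numbered 1, which leaves 2 mice per group, the median difference of the 10 genes was -0.016. In that comparison Acly stood at -0.011, Acaca at -0.22, Acacb at -0.27, Scd1 at -0.061, Elovl6 at -0.021, Fasn at 0.18 and Me1 at 0.10. The 10-gene median was 0.12 without miR-143DOX replicate 1 alone and 0.13 without control replicate 1 alone.

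Probe sets of a gene read different stretches of its transcripts, so their agreement shows whether a gene's difference rests on a few of them. They share the same 6 mice and are not replicates. Of the 226 probe sets of the 10 genes 223 were tested, and 0 passed 5% FDR over all 176155 probe sets tested (background 0%). Among the 223, 11 lay higher and 0 lower with unadjusted p below 0.05, where 1.99% of all probe sets tested lay higher and 2.19% lower. A total of 7 of the 11 belonged to Fasn, 2 to Me1, and 1 each to Acacb and Elovl6. Fasn had 46 of 47 probe sets above 0, Acly 31 of 31, Me1 16 of 16, Scd1 9 of 9, Acaca 16 of 18, Elovl6 6 of 7 and Acacb 43 of 52. The probe sets of Me1 differed by 0.34 to 0.88, those of Acly by 0.0069 to 0.89 and those of Scd1 by 0.0034 to 0.50. In Me1 all 16 had miR-143DOX replicate 1 highest and control replicate 1 lowest. Among the 47 of Fasn, 44 had miR-143DOX replicate 1 highest and 22 had every miR-143DOX mouse above every control mouse, of 27 such probe sets in the 10 genes (4.31% of all probe sets tested). The reverse arrangement, every miR-143DOX mouse below every control mouse, was found in 1 probe set each of Acaca, Acacb and Mlxipl. That of Acaca, 10379821, was too dim to be tested. The share of all probe sets with the reverse arrangement was not computed, so these counts have no background beside them. The lowest probe sets of Acaca and Elovl6 were dim: 10379821 of Acaca, at a level of 3.92, differed by -0.81, and 10495994 of Elovl6, at 3.39, by -0.57, both below the level at which probe sets were tested. Probe set 10393993 of Fasn, at 8.69, differed by -0.34. Another of Fasn, 10394016, was also too dim to be tested, at 3.67, and differed by 0.81.

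The probe sets of Srebf1 and Mlxipl had other arrays at the ends. Of the 20 probe sets of Srebf1, 9 lay above 0 and 11 below, between -0.24 and 0.21, and 0 had miR-143DOX replicate 1 highest, while 16 had it lowest and 17 had miR-143DOX replicate 3 highest. Of the 24 of Mlxipl, 20 lay below 0 and 4 above, 19 had control replicate 3 highest and 16 had miR-143DOX replicate 1 lowest. The deposited table gives no positions, so probe sets were not assigned to the alternative first exons from which SREBP1a and SREBP1c are made.

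**Figure D3:**
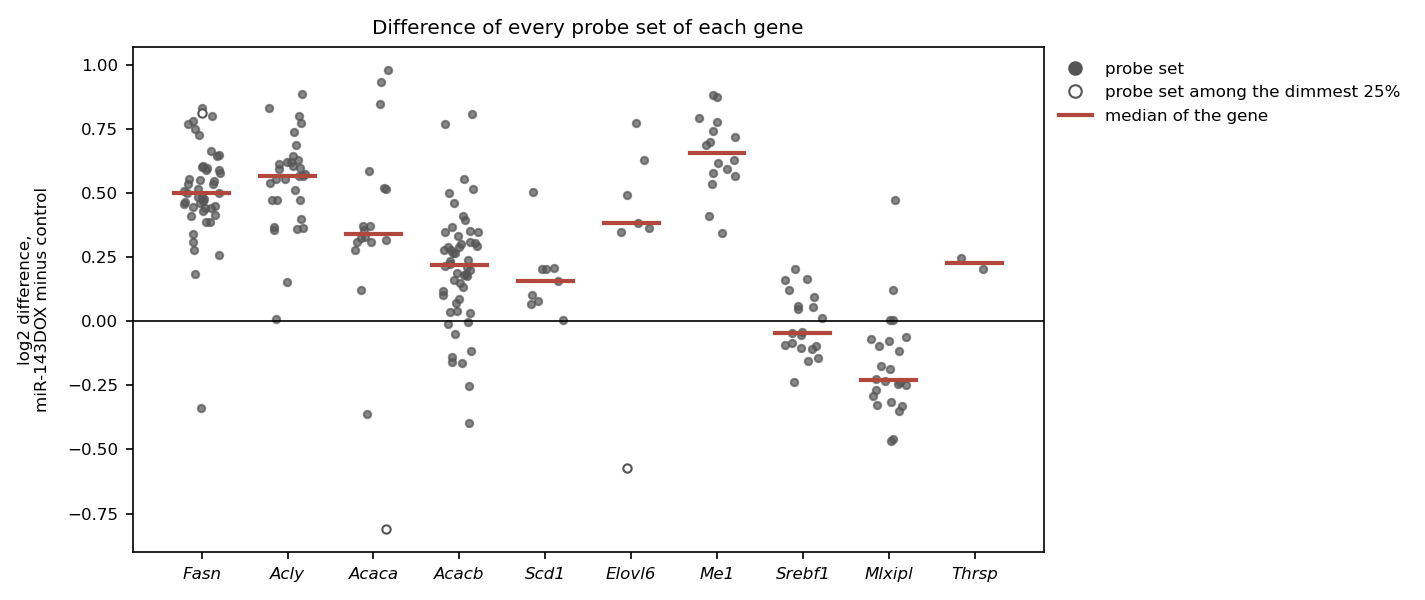
Log2 difference, miR-143DOX minus control, of each of the 226 probe sets, by gene, with the gene's median as a bar; open points are probe sets among the dimmest 25% of the table. Points of Acly, Me1 and Scd1 all lie above 0, and those of Srebf1 lie on both sides of it.

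The spread over mice was set beside the circadian clock, because many lipogenic transcripts have a daily rhythm in mouse liver and the labels give no collection time. Arntl encodes BMAL1, an activator of the clock, and Dbp encodes a clock output factor whose transcript peaks when Arntl is low. Arntl stood at 8.24, 7.25 and 6.35 in miR-143DOX mice, against 5.56, 7.80 and 7.19 in control mice. Dbp stood at 6.99, 8.14 and 9.35 in miR-143DOX mice, against 10.08, 8.06 and 8.04 in control mice. Dbp minus Arntl was lowest in miR-143DOX replicate 1, at -1.25, and highest in control replicate 1, at 4.52, the same arrays that were at the ends of the enzyme genes. In the other 4 arrays it was 0.90 and 3.00 in miR-143DOX mice, against 0.26 and 0.85 in control mice. Neither clock gene passed the test between the groups (limma adjusted p = 0.9997 for each).

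Adjusted over the 15310 genes for which the relation to Dbp minus Arntl was computed, 0 of the 10 genes passed 5% FDR by Pearson's r or by Spearman's rho (0% of all genes by Pearson's r, smallest adjusted exact p = 0.583). Before adjustment 5 of the 10 had a negative r with exact permutation p below 0.05 and 0 a positive one. Over all genes 2.61% had such a negative r and 3.74% such a positive r. The 5 are enzyme genes that varied together over the same 6 arrays, so they are not 5 separate pieces of evidence for a relation to Dbp minus Arntl. The relation was already known from earlier results of these data. Acacb had r = -0.98 (exact permutation p = 0.00139, the smallest that 6 arrays can give, adjusted p = 0.583) and rho = -1 (exact p = 0.00278, adjusted p = 0.942). Scd1 had r = -0.95 (exact p = 0.00278, adjusted p = 0.583) and rho = -0.94 (exact p = 0.0167, adjusted p = 0.942). Without the 2 arrays farthest from the median of Dbp minus Arntl, r over the remaining 4 was -0.97 for Acacb and -0.96 for Scd1. Of these 4, miR-143DOX replicate 3 stood at 3.00 and the others at 0.26 to 0.90. Any r over the 4 arrays, here and below, therefore depends heavily on that 1 array.

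For Acaca r was -0.92 (exact p = 0.00694, adjusted p = 0.641) and rho -0.94 (exact p = 0.0167), for Me1 r was -0.92 (exact p = 0.0181, adjusted p = 0.663) and rho -0.83 (exact p = 0.0583), and for Acly r was -0.89 (exact p = 0.0222, adjusted p = 0.675) and rho -0.83 (exact p = 0.0583). Over those 4 arrays r was -0.58 for Acaca, -0.50 for Me1 and -0.54 for Acly. Fasn had r = -0.79 (exact p = 0.0694) and rho = -0.49 (exact p = 0.356), and Elovl6 r = -0.82 (exact p = 0.0569) and rho = -0.66 (exact p = 0.175). Their r turned to 0.52 and 0.38 over the 4 arrays, so that the negative r of Fasn and Elovl6 rests on the arrays left out. Srebf1 ran the other way, with r = 0.80 (exact p = 0.0583, adjusted p = 0.781), rho = 0.89 (exact p = 0.0333, adjusted p = 0.992) and r = 0.98 over the 4 arrays. Mlxipl had r = -0.0046 (exact p = 0.996) and rho = 0.20 (exact p = 0.714), and Thrsp r = -0.43 (exact p = 0.394) and rho = -0.43 (exact p = 0.419). With 3 arrays in each group the relation was not computed within a group. With Dbp minus Arntl as a covariate the group difference was 0.43 for Me1, 0.39 for Fasn, 0.32 for Acly, 0.14 for Acaca and 0.015 for Acacb. Unadjusted limma p was 0.00964 for Me1 and 0.0255 for Fasn, and 0 of the 10 genes passed 5% FDR. The covariate was chosen with its relation to these genes known, so these p-values are no firmer support than those without it. The share of all genes with unadjusted p below 0.05 in that fit is not given here. The 10-gene median in that fit was 0.15.

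**Figure D4:**
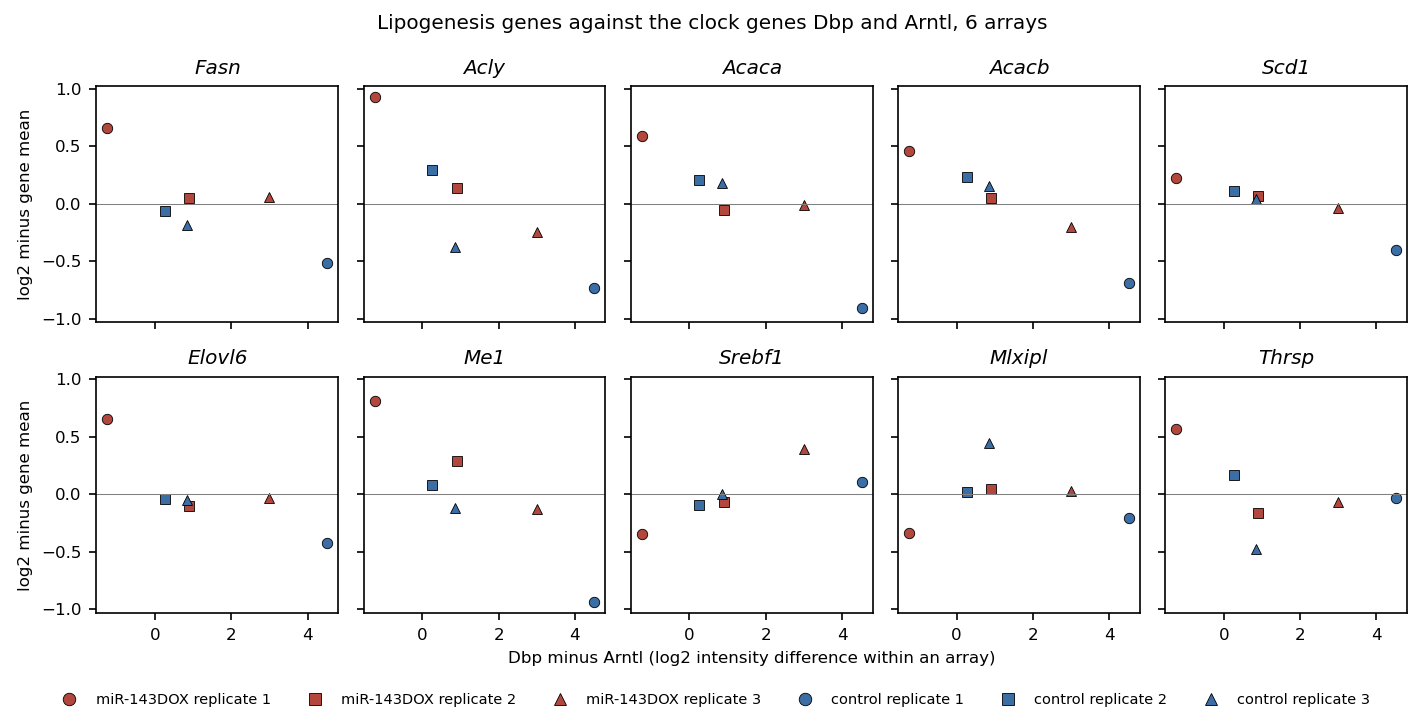
Level of each gene minus its own mean (log2, vertical) against Dbp minus Arntl (log2 difference within an array, horizontal) in 6 arrays, with colour for the group and shape for the replicate. Acacb and Scd1 run downward from left to right, Srebf1 runs upward, and in Fasn and Elovl6 the 4 middle arrays lie close to 0.

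The wider pathway was followed through 9 lists of related genes, with 133 genes tested that were not among the 10. None passed 5% FDR over all genes (0 of 133, background 0%), with 4 higher and 5 lower with unadjusted p below 0.05. Over all genes tested 1.38% lay higher and 1.68% lower by that measure, which is the background for the count of each list. Acetyl-CoA and NADPH supply had the median nearest to that of the lipogenesis genes, 0.16, with fatty acid oxidation next at 0.13. In the supply list 11 of 12 genes were above 0, with 0 higher and 1 lower with unadjusted p below 0.05. Its lowest array by mean deviation was control replicate 3, at -0.12, and not control replicate 1, at -0.073. Idh1 and Cs, the genes of cytosolic isocitrate dehydrogenase and citrate synthase, each differed by 0.24 (limma adjusted p = 0.9997). Pgd, the 6-phosphogluconate dehydrogenase gene of the pentose phosphate pathway, which also yields NADPH, had 9.48, 8.82 and 8.80 in miR-143DOX mice, against 8.33, 8.96 and 8.90 in control mice, with replicate 1 at both ends as in the enzymes. Hlcs, the gene of the ligase that attaches biotin to the carboxylases, lay lower in every miR-143DOX mouse, at 6.64, 6.25 and 6.61 against 6.87, 6.85 and 6.91 in control (difference -0.38, limma adjusted p = 0.9997). Without both arrays numbered 1 the median of the list was 0.032.

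Triglyceride synthesis, the use to which new fatty acids are put, had 6 of 15 genes above 0 and a median of -0.10, with 1 gene higher with unadjusted p below 0.05, Gpd1, which makes glycerol 3-phosphate. Gpd1 had 10.18, 10.08 and 10.02 in miR-143DOX mice, against 9.63, 9.96 and 9.67 in control mice, and the groups were apart (1.26-fold, limma adjusted p = 0.9997). Pnpla3, a SREBP1 target that encodes a lipid droplet lipase, had 7.98, 7.16 and 6.95 in miR-143DOX mice, against 6.69, 7.31 and 6.73 in control mice, and overlapped. Gpam, the mitochondrial glycerol 3-phosphate acyltransferase, stood at 11.32, 10.45 and 10.63 in miR-143DOX mice, against 10.41, 10.63 and 10.44 in control mice. Both had miR-143DOX replicate 1 highest and control replicate 1 lowest. Gpat4, a glycerol 3-phosphate acyltransferase of the endoplasmic reticulum, had 9.19, 9.27 and 9.39 in miR-143DOX mice, against 9.46, 9.45 and 9.49 in control mice, and the groups were apart (difference -0.18, limma adjusted p = 0.9997). The other elongases and desaturases had 4 of 13 genes above 0 and a median of -0.07, with 0 with unadjusted p below 0.05. Elovl1, an elongase of very long-chain fatty acids, had 8.52, 8.58 and 8.51 in miR-143DOX mice, against 8.74, 8.75 and 8.78 in control mice (difference -0.22, limma adjusted p = 0.9997), and Hacd3, a dehydratase gene of the elongation cycle, had 9.92, 9.95 and 9.96 in miR-143DOX mice, against 10.16, 10.10 and 10.13 in control mice (difference -0.19, limma adjusted p = 0.9997). In both genes every miR-143DOX mouse lay below every control mouse. Tecr, the gene of the reductase that ends the cycle, overlapped (difference -0.21). Elovl5, an elongase of polyunsaturated fatty acids, had 12.43, 12.24 and 11.96 in miR-143DOX mice, against 11.49, 12.30 and 12.06 in control mice, with replicate 1 at both ends (difference 0.26, limma adjusted p = 0.9997). The median of this list was -0.17 without control replicate 1, and -0.0032 once miR-143DOX replicate 3 was left out.

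The genes that process SREBP1 or act with it, from its escort SCAP to its cofactors, had 11 of 20 genes above 0 and a median of 0.02, with 1 higher and 0 lower with unadjusted p below 0.05. The 1 gene was Pparg, the fat-cell receptor PPARgamma, which in liver promotes lipid storage, at 6.62, 6.47 and 6.69 in miR-143DOX mice, against 6.41, 6.22 and 5.93 in control mice, with the groups apart (difference 0.41, limma adjusted p = 0.9997). Rxra, the gene of the partner receptor of LXR, Srebf2, the gene of SREBP2, and Nfya, a subunit gene of NF-Y, differed by -0.22, -0.21 and -0.20 (limma adjusted p = 0.9997 each). Insig2, singled out after its values were seen, encodes a protein that holds SREBPs in the endoplasmic reticulum and had 11.99, 11.29 and 10.95 in miR-143DOX mice, against 9.38, 11.75 and 11.32 in control mice, with the arrays numbered 1 at both ends (difference 0.59, limma adjusted p = 0.9997). The partner and targets of ChREBP had 9 of 13 genes above 0 and a median of 0.05, with 0 with unadjusted p below 0.05. Pklr, the liver pyruvate kinase gene and a classic target of ChREBP, had 11.01, 10.72 and 10.95 in miR-143DOX mice, against 10.43, 10.84 and 10.52 in control mice (difference 0.30, limma adjusted p = 0.9997). Cholesterol synthesis and uptake, driven by the related factor SREBP2, had 6 of 18 genes above 0, a median of -0.10, and 3 genes lower with unadjusted p below 0.05: Sqle, Cyp51 and Msmo1. Sqle, the squalene epoxidase gene, had 9.58, 9.34 and 9.75 in miR-143DOX mice, against 10.11, 9.81 and 10.08 in control mice, with the groups apart (difference -0.44, limma adjusted p = 0.9997). The median of the list turned to 0.029 without miR-143DOX replicate 2 and was -0.19 without miR-143DOX replicate 1. In that list control replicate 1 was the highest array by mean deviation, at 0.19, where in the lipogenesis genes it was the lowest.

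**Figure D5:**
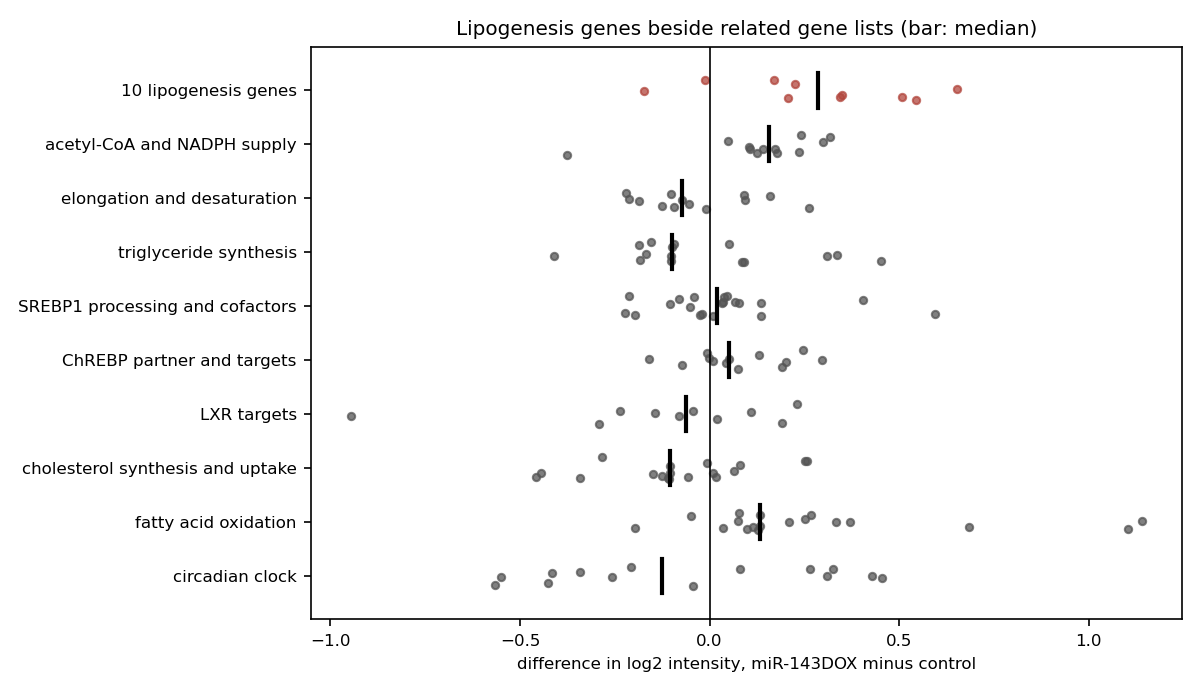
Log2 difference, miR-143DOX minus control, of every tested gene of the 10 lipogenesis genes and of 9 related lists, with the median as a bar. The medians run from -0.13 for the circadian clock to 0.29 for the lipogenesis genes.

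Adipocytes also make fatty acids, so their markers were set beside the result. Of 8 adipocyte markers 7 were found and 5 tested, all 5 above 0 and 0 with unadjusted p below 0.05, and the mean level of the 7 was 6.43 to 6.73 (log2) in miR-143DOX arrays and 6.33 to 6.49 in control arrays. That mean was raised by Car3, which stood far above every other marker of the list. Car3 had 13.28, 13.19 and 13.01 in miR-143DOX mice, against 12.86, 13.12 and 12.85 in control mice. Adipoq, the adiponectin gene that defines the cell type, stood at 3.63, 4.04 and 3.80 in miR-143DOX mice, against 3.82, 4.09 and 3.58 in control mice, below the level at which genes were tested, and so did Lep, the leptin gene. Kupffer cell markers had a mean deviation of 0.18, -0.16 and 0.059 in miR-143DOX arrays, against 0.0075, -0.071 and -0.015 in control arrays, and sinusoidal endothelium markers 0.18, -0.32 and -0.046 in miR-143DOX arrays, against -0.032, 0.054 and 0.16 in control arrays. Stellate cell markers had 0.19, -0.059 and -0.074 in miR-143DOX arrays, against 0.050, 0.032 and -0.14 in control arrays. All 3 lists were highest in miR-143DOX replicate 1, as the enzymes were, and none was lowest in control replicate 1. The 2 red cell markers tested were also highest in miR-143DOX replicate 1, at 0.21. Cholangiocyte markers were lowest in control replicate 1, at -0.11. Hepatocyte markers were lowest in miR-143DOX replicate 1, at -0.15, and next lowest in control replicate 1, at -0.11. Among the hepatocyte markers Serpina1a differed by -0.98 (limma adjusted p = 0.9997). The part of these lists in the result was not tested. In such bulk samples fewer cells of a type and less RNA per cell cannot be told apart.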

How the data were processed

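Hepatocyte RNA of 3 miR-143DOX and 3 control mice was read on Affymetrix arrays. The deposited table holds normalized log2 intensities for 234873 probe sets, and the submitters' processing notes name Partek; for background correction, normalization and genome build the sources used here give nothing. The log base was taken from the range of values, 1.6 to 15.2. Because the 75th percentiles of the arrays differed by up to 0.127, over the limit of 0.1, the values were quantile normalized. Probe sets with 1 gene symbol in the platform annotation (212097, against 4475 with several and 18301 with none) were averaged per gene, and the dimmest 25% of genes were left out, which left 15312. The comparison used lmFit and eBayes of limma 3.58.1 (R 4.3.3) and Benjamini-Hochberg adjustment, and was tested on simulated data. Precision is limited by having 6 arrays. The replicates are separate mice. The 10 genes, the lists, motifs and alternatives were chosen with earlier results of these data known. In the related lists the named genes are among the 4 with the smallest p of each list, with an exception said beside it. Arntl and Dbp of the circadian clock list were named for the measure Dbp minus Arntl and not by their p. Promoters are from RefSeq (GRCm38.p6), and relations to Dbp minus Arntl used two-sided exact permutation tests.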

Additional observations from a re-analysis of the deposited data

How the results depend on the processing

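None of the 10 genes passed 5% FDR in limma under any of 18 alternatives to scaling, filter, summary of probe sets, model and samples (with the main settings 2 of 10 had unadjusted p below 0.05), and Fasn and Me1 stayed above 0 in all 18. Without both arrays numbered 1, the extremes of Dbp minus Arntl, the median of the 10 was -0.016, Acly -0.011, Acaca -0.22, Acacb -0.27, Scd1 -0.061, Elovl6 -0.021 and Srebf1 0.21; list medians were 0.032 for acetyl-CoA and NADPH supply, 0.11 for ChREBP targets and 0.12 for the clock, and 1 gene outside the lists passed 5% FDR (Dcpp1, -1.45). Leaving out 1 array moved the median of the 10 between 0.12 and 0.41, triglyceride synthesis between -0.13 and 0.0027, SREBP1 processing between -0.051 and 0.061, ChREBP targets between -0.0080 and 0.11, LXR targets between -0.14 and 0.020, acetyl-CoA and NADPH supply between 0.078 and 0.21, cholesterol synthesis between -0.19 and 0.029 and fatty acid oxidation between 0.081 and 0.29. Over the same 6 omissions Acly ran from 0.22 to 0.83, Me1 from 0.35 to 0.88, Srebf1 from -0.21 to 0.16 (0.018 and 0.037 with miR-143DOX replicate 2 or control replicate 1 left out), Acaca from -0.018 to 0.54, Acacb from -0.089 to 0.38, Thrsp from -0.0017 to 0.37 and Mlxipl from -0.32 to 0.0063. Srebf1 was 0.088 with Dbp minus Arntl as covariate and 0.0015 by the median over probe sets. With the brightest probe set per gene, triglyceride synthesis was 0.025, ChREBP targets 0.14 and the clock 0.061; ChREBP targets were 0.13 with arrays weighted and 0.10 with that covariate. The cause of these shifts was not tested. Deviations of same-numbered arrays correlated at 0.11, 0.047 and 0.30, so the numbers were not taken as pairs; with the replicate number as a block 0 genes passed 5% FDR, as without it. The block leaves each difference as it was by construction (Fasn 0.51, limma adjusted p = 0.96) and bears only on its error.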

Other observations

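Fatty acid oxidation, the opposing pathway, had 16 of 18 genes above 0 (miR-143DOX minus control) and a median of 0.13 (0.081 without control replicate 3, 0.084 without miR-143DOX replicate 1, and 0.29 once control replicate 1 was left out), with 2 higher and 0 lower with unadjusted p below 0.05 and 0 past 5% FDR. Vnn1, a PPARalpha target that encodes pantetheinase, had 9.55, 9.37 and 8.82 (log2) in miR-143DOX mice, against 8.04, 8.12 and 8.27 in control mice (difference 1.10, limma adjusted p = 0.735, the smallest of all genes tested). Cyp4a14, a fatty acid hydroxylase gene and PPARalpha target, had 10.71, 10.79 and 9.78 in miR-143DOX mice, against 9.92, 8.87 and 9.07 in control mice (difference 1.14, limma adjusted p = 0.9997). In Vnn1 the groups were apart, and in Cyp4a14 they overlapped. LXR targets had 4 of 10 genes above 0 and a median of -0.06, and Cyp7a1, the rate-limiting enzyme of bile acid synthesis, had 7.98, 10.10 and 10.04 in miR-143DOX mice, against 10.47, 10.41 and 10.08 in control mice, so that miR-143DOX replicate 1 stood far below the other 5 arrays (difference -0.95, limma adjusted p = 0.9997).

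Other tested genes were ranked by likeness to the mean of the lipogenesis genes if their SD over the arrays was at least 0.2. Predicted genes with Gm or Rik names were left out, which left 5020. The 5 most alike by Pearson's r over the 6 arrays were Pygl (0.98), Pgd (0.98), St5 (0.98), Dnmt3b (0.98) and Lrfn3 (0.98), given as a description. Pygl, the liver glycogen phosphorylase gene, had 11.36, 10.99 and 11.00 in miR-143DOX mice, against 10.70, 11.14 and 11.01 in control mice. The groups of all 5 overlapped.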
